A study of Mus musculus with 20 samples.

Results

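Leucine, isoleucine and valine, the branched-chain amino acids (BCAA), are broken down in mitochondria by a chain of enzymes, and 31 genes of that chain were followed here in visceral adipose tissue (VAT) from the epididymal fat of mice. The 31 genes were given by a list of gene names, which was drawn up with earlier results of these data known although its rule uses no value, among 37,074 gene names on the array and 25,618 that gave a tested probe. Each of the 20 samples was the RNA of 1 male C57bl/6J mouse of the F3 generation, hybridized on its own Agilent array of 1 colour. The 6 Ref mice (labelled STD Cont) came from a lineage that had received high-oleic sunflower oil for 3 generations and were fed a low-fat diet, and the 6 HFoleic mice (HFD Cont) came from the same lineage and were fed an obesogenic high-fat, high-sucrose diet for several months. The 8 HFepa mice (HFD O3) were fed that same obesogenic diet but descended from a lineage that had received fish oil rich in eicosapentaenoic acid (EPA), an omega 3 fatty acid. The HFoleic and HFepa mice were matched for body weight only at the start of the obesogenic diet, and samples with low RNA integrity were not hybridized. No group of the EPA lineage on the low-fat diet was analysed here, so lineage and diet are compared together in HFepa vs. Ref.

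In adipocytes, BCAA breakdown supplies acetyl-CoA and propionyl-CoA, and the tissue is known for lowering this pathway in obesity. Transporters bring the amino acids into the cell, aminotransferases remove the amino group, and the branched-chain keto acid dehydrogenase (BCKDH) complex commits the resulting keto acids to oxidation. From there each amino acid has its own arm of enzymes, and the valine and isoleucine arms meet at propionyl-CoA.

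All 31 genes were measured, and the probe that stands for each gene, the brightest tested one, was well above background on all 20 arrays. Values are log2 intensities after quantile normalization between arrays, so a difference of 1 is a doubling. Differences are log2 fold changes from a limma fit with 1 mean per group, with their standard error (SE), and p-values were adjusted over the 39,390 probes tested and judged at 0.05. Where a pair of fold changes is given without names, the first is HFoleic vs. Ref and the second HFepa vs. Ref. The share of spots well above background lay between 66.06% and 71.88% on every array. All 10 adipocyte markers were measured, and their changes are given with those of the other cell types.

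Most genes of the chain were lower in the control lineage on the obesogenic diet. In HFoleic vs. Ref, 21 of the 31 genes were lower and 4 were higher, that is 67.7% and 12.9% of the genes, where 16.7% of all tested genes were lower and 15.2% were higher. The median fold change of the 31 genes was −0.48, against −0.04 over all genes. For 9 of the 31 genes no HFoleic mouse overlapped any Ref mouse, where 14% of all genes showed such a separation. Bcat1 and Abat were the 2 of these that were higher, and Bcat2, Mccc2, Echs1, Hsd17b10, Aldh6a1, Aldh2 and Pccb the 7 that were lower. In whole tissue, fewer cells of a type and less RNA per cell cannot be told apart, and this holds for every value below.

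In mice of the EPA lineage on the same diet, 27 of the 31 genes were also below Ref in mean, but only 1 was called lower and 1 higher in HFepa vs. Ref. Over all tested genes, 1.42% were lower and 1.03% were higher in that comparison. A missing call here is not a finding of no change. The 21 genes lower in HFoleic vs. Ref had HFepa vs. Ref fold changes between −0.60 (Hsd17b10) and −0.12 (Hadh). Their adjusted p in HFepa vs. Ref lay between 0.029 (Mccc2) and 0.470 (Hadh), with a median of 0.126. The median fold change of the 31 genes was −0.25, against −0.02 over all genes, and 4 of them did not overlap between the groups, where 1.04% of all genes did not. Every HFepa mouse lay below every Ref mouse for Mccc2, Acadsb and Acad8 and above them for Abat, and of these Acadsb and Acad8 missed the threshold. For Mccc2, Acadsb and Acad8 the nearest mice of these groups were almost level. The 6 Ref arrays enter both comparisons, so the values are set side by side and were not correlated.

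**Figure D1:**
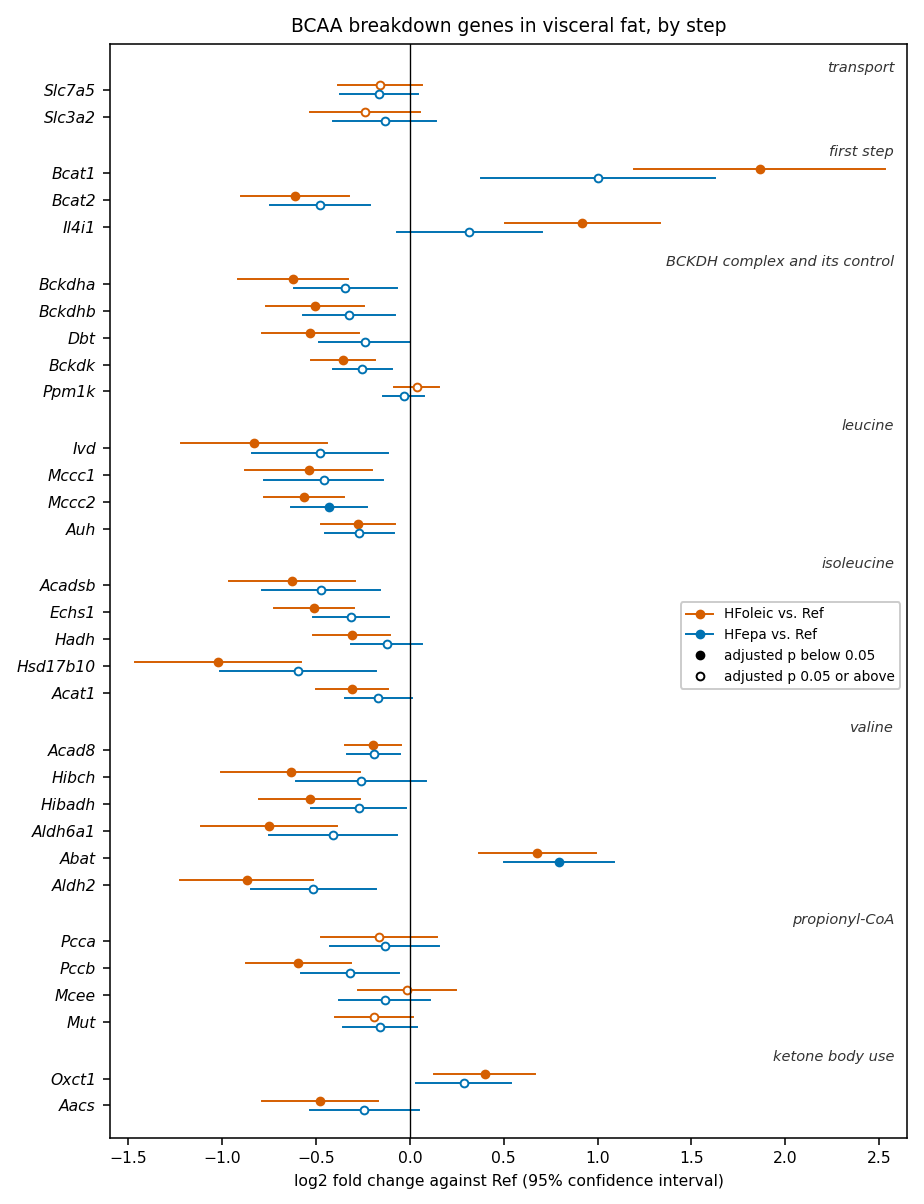
Log2 fold change of the 31 genes against Ref, grouped by step, for HFoleic (orange) and HFepa (blue); points are estimates, lines their 95% confidence intervals, and filled points had an adjusted p below 0.05. Of the HFoleic points 21 are filled to the left of 0 and 4 to the right, while of the HFepa points only those of Mccc2 and Abat are filled.

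The probes that carry the main results are given first, since each value below is the brightness of 1 such sequence of 60 bases. Shown are the last 30 bases of the probe for the gene with the largest rise, the gene with the largest fall, and the pair whose brightest probe was called in both diet comparisons. Capitals mark AATAAA, the hexamer that directs polyadenylation, where these 30 bases hold it. Positions are those of the whole probe on mm9, as the files give them.
Bcat1, chr6:144947709-144947768, minus strand: atggaagtgacagatactatacattatgtg
Hsd17b10, chrX:148438913-148438972, plus strand: gctccactcaccctcggtgcctAATAAAtt
Mccc2, chr13:100718508-100718567, minus strand: tatcctttgagtaccacaaacagtatgaaa
Abat, chr16:8621576-8621635, plus strand: atgtttcctgtgttaatcagtattcttaaa
The hexamer was present anywhere in the 60 bases for 5 of the 31 probes, against 9.8% of all 56,605 probes.

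The transport step was not called in either comparison. Slc7a5 and Slc3a2 encode the light and heavy chains of the large neutral amino acid transporter. Slc7a5 ranged from 5.84 to 6.44 in Ref, from 5.72 to 6.25 in HFoleic and from 5.70 to 6.10 in HFepa, with a fold change of −0.16 ± 0.11 (SE, adjusted p = 0.277) in HFoleic vs. Ref, which was −0.49 (adjusted p = 0.101) with the processed signal and was called at −0.29 (adjusted p = 0.0387) with median centring. Slc3a2 had medians of 13.54, 13.21 and 13.27 in the same order, with a fold change of −0.24 ± 0.14 (SE, adjusted p = 0.209). A second, dimmer probe of Slc3a2 was called lower in HFoleic vs. Ref, at −0.25 ± 0.09 (SE, adjusted p = 0.046), and the last one was at 0.01, so the probes of this gene differ in call. The second probe shares a run of 25 bases with a probe of Timmdc1.

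At the first step, removal of the amino group, the genes moved in opposite directions. Bcat2 encodes the mitochondrial branched-chain aminotransferase, the main form of adipocytes, and Bcat1 the cytosolic form. Bcat2 ranged from 11.63 to 12.55 (median 11.94) in Ref, from 11.12 to 11.63 (median 11.31) in HFoleic and from 11.25 to 11.82 (median 11.47) in HFepa. Every HFoleic mouse lay below every Ref mouse for Bcat2, though the nearest mice were almost level, and 5 of the 8 HFepa mice did. Its fold change was −0.61 ± 0.14 (SE, adjusted p = 0.0027) in HFoleic vs. Ref and −0.48 ± 0.13 (SE, adjusted p = 0.0532) in HFepa vs. Ref.

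Bcat1 showed the largest fold change of the 31 genes. It ranged from 7.52 to 9.06 (median 8.82) in Ref, from 9.51 to 11.31 (median 10.55) in HFoleic and from 8.47 to 10.32 (median 9.83) in HFepa. All 6 HFoleic mice and 7 of the 8 HFepa mice lay above the highest Ref mouse. The fold change of Bcat1 was 1.86 ± 0.32 (SE, adjusted p = 0.000591) in HFoleic vs. Ref, which is 3.64-fold on the linear scale, and 1.00 ± 0.30 (SE, adjusted p = 0.0726) in HFepa vs. Ref, or 2.01-fold. A pair of further Bcat1 probes was also called higher in HFoleic vs. Ref, at 1.58 and 0.61, and the dimmest, above background on 12 arrays, was not called at 0.16.

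Il4i1 encodes a secreted amino acid oxidase of myeloid cells that acts mainly on phenylalanine. Its values ranged from 8.01 to 8.77 (median 8.42) in Ref, from 8.70 to 9.87 (median 9.32) in HFoleic and from 8.23 to 9.30 (median 8.78) in HFepa, and 5 of 6 HFoleic mice were above all Ref mice against 4 of 8 HFepa mice. The fold change was 0.92 ± 0.20 (SE, adjusted p = 0.00212) in HFoleic vs. Ref and 0.32 ± 0.18 (SE, adjusted p = 0.347) in HFepa vs. Ref.

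The BCKDH complex, the committed step, was lower in HFoleic vs. Ref in each subunit listed here. Bckdha and Bckdhb encode the chains of its decarboxylase and Dbt its transacylase core. Bckdha ranged from 13.98 to 14.62 (median 14.14) in Ref, from 13.33 to 14.00 (median 13.48) in HFoleic and from 13.31 to 14.12 (median 13.93) in HFepa, and its fold change was −0.62 ± 0.14 (SE, adjusted p = 0.00288) in HFoleic vs. Ref and −0.34 ± 0.13 (SE, adjusted p = 0.145) in HFepa vs. Ref. Bckdhb ranged from 14.86 to 15.42 (median 15.09) in Ref, from 14.33 to 14.96 (median 14.56) in HFoleic and from 14.33 to 15.01 (median 14.82) in HFepa, with fold changes of −0.51 ± 0.13 (SE, adjusted p = 0.00502) and −0.32 ± 0.12 (SE, adjusted p = 0.126). Dbt ranged from 9.69 to 10.24 (median 9.97) in Ref, from 9.21 to 9.70 (median 9.39) in HFoleic and from 9.33 to 9.98 (median 9.80) in HFepa, with fold changes of −0.53 ± 0.12 (SE, adjusted p = 0.0035) and −0.24 ± 0.12 (SE, adjusted p = 0.246). For each of these 3 subunits 5 of the 6 HFoleic mice were below all Ref mice and the remaining one, mouse 1, lay within the Ref range. The remaining component of the complex, the dehydrogenase Dld that it shares with other complexes and that is not on the list of 31, was at −0.15 ± 0.12 (SE, adjusted p = 0.366) in HFoleic vs. Ref.

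The complex is switched off by the kinase Bckdk and switched on by the phosphatase Ppm1k. Bckdk ranged from 10.91 to 11.21 (median 11.02) in Ref, from 10.49 to 10.92 (median 10.66) in HFoleic and from 10.64 to 11.08 (median 10.74) in HFepa. This inhibitor was lower along with the subunits, at −0.36 ± 0.08 (SE, adjusted p = 0.00302) in HFoleic vs. Ref, while HFepa vs. Ref gave −0.25 ± 0.08 (SE, adjusted p = 0.0742). Of the HFepa mice 7 of 8 lay below every Ref mouse for Bckdk, as did 5 of the 6 HFoleic mice.

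The phosphatase depended on the probe. The brightest probe of Ppm1k ranged from 17.78 to 17.92 (median 17.84) in Ref, from 17.69 to 17.99 (median 17.88) in HFoleic and from 17.67 to 17.90 (median 17.83) in HFepa, and the fold change was 0.04 ± 0.06 (SE, adjusted p = 0.67) in HFoleic vs. Ref and −0.03 ± 0.05 (SE, adjusted p = 0.764) in HFepa vs. Ref. A second probe of the gene, above background on all 20 arrays and 1708 bases away, ranged from 9.31 to 9.74 (median 9.61) in Ref, from 8.61 to 9.30 (median 8.80) in HFoleic and from 8.63 to 9.64 (median 9.12) in HFepa. By the second probe no HFoleic mouse overlapped Ref, with a fold change of −0.72 ± 0.15 (SE, adjusted p = 0.00191), and HFepa vs. Ref gave −0.46 ± 0.14 (SE, adjusted p = 0.0835). The last, dim probe, above background on 11 arrays, was not called at −0.20. The sequences of the first 2 probes are shown because they bear on which value stands for the gene. Capitals in the brightest probe (its first 30 bases) mark the 25 bases that 4 probes of other genes on the array also carry, and the second probe (its last 30 bases) holds no run of that length from a probe of another gene.
Ppm1k, brightest probe, chr6:57458598-57458657, minus strand: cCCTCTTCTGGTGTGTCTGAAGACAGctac
Ppm1k, second probe, chr6:57456890-57456949, minus strand: gcaagttgtgtttaacaagatgaagaaacc
In all, 10 probes of other genes shared a run of 25 bases with some stretch of the brightest Ppm1k probe, among them probes of Pkd2 and Medag, and it was the only one of the 31 shown probes with such a run. Whether RNA of other transcripts adds to its brightness was not tested, and the counts above, which use it, treat Ppm1k as not called.

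**Figure D2:**
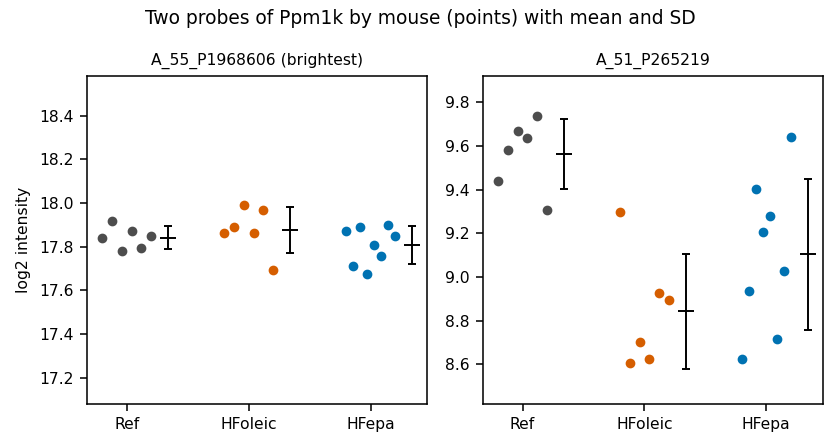
Log2 intensity of Ppm1k in each mouse (points) with the mean and SD of each group (bars), for the brightest probe and for the second probe; both panels span the same log2 range. The brightest probe stays between 17.67 and 17.99 in all 20 mice, while by the second probe all 6 HFoleic mice, at 9.30 or below, lie under the lowest Ref mouse at 9.31.

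All 4 genes of the leucine arm were lower in HFoleic vs. Ref. Ivd encodes isovaleryl-CoA dehydrogenase, which takes the first step after BCKDH. Ivd ranged from 13.51 to 13.97 (median 13.70) in Ref, from 12.52 to 13.51 (median 12.74) in HFoleic and from 12.43 to 13.52 (median 13.38) in HFepa, with fold changes of −0.83 ± 0.19 (SE, adjusted p = 0.00267) in HFoleic vs. Ref and −0.48 ± 0.17 (SE, adjusted p = 0.127) in HFepa vs. Ref. In HFoleic only mouse 1 reached the Ref range, and 7 of the 8 HFepa mice lay below it. Of the other Ivd probes, one was called in both comparisons, with −0.61 ± 0.14 (SE, adjusted p = 0.0317) in HFepa vs. Ref.

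Mccc1 and Mccc2 encode the subunits of the biotin-dependent methylcrotonyl-CoA carboxylase. Mccc2 ranged from 11.72 to 11.97 (median 11.85) in Ref, from 10.95 to 11.50 (median 11.35) in HFoleic and from 11.05 to 11.71 (median 11.43) in HFepa. For Mccc2 every mouse on the obesogenic diet, of either lineage, lay below every Ref mouse. However, HFepa mouse 3 at 11.714 and Ref mouse 2 at 11.715 were almost level. Mccc2 was the only one of the 31 genes whose brightest probe was called lower in both comparisons. For Ivd, Mccc1 and Aldh2 a dimmer probe was called lower in both, though that of Mccc1 ends in a simple repeat. The fold changes of Mccc2 were −0.57 ± 0.10 (SE, adjusted p = 0.000804) in HFoleic vs. Ref and −0.43 ± 0.10 (SE, adjusted p = 0.029) in HFepa vs. Ref. A dim Mccc2 probe was not called at 0.05, and the remaining one was at −0.40 (adjusted p = 0.0467) in HFoleic vs. Ref. Neither of these probes was called in HFepa vs. Ref.

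Mccc1 ranged from 13.38 to 14.24 (median 13.67) in Ref, from 12.94 to 13.59 (median 13.08) in HFoleic and from 12.61 to 13.54 (median 13.37) in HFepa, with fold changes of −0.54 ± 0.16 (SE, adjusted p = 0.0158) and −0.46 ± 0.15 (SE, adjusted p = 0.0997). One other Mccc1 probe was called in HFepa vs. Ref, at −0.39 ± 0.09 (SE, adjusted p = 0.0361), and another was called in neither. The last 30 bases of the called one are a simple repeat, and whether its signal comes from Mccc1 alone was not tested. Auh encodes the hydratase that makes HMG-CoA from the product of that carboxylase. Auh ranged from 13.01 to 13.34 (median 13.18) in Ref, from 12.63 to 13.13 (median 12.92) in HFoleic and from 12.63 to 13.18 (median 12.93) in HFepa, with fold changes of −0.28 ± 0.09 (SE, adjusted p = 0.0307) and −0.27 ± 0.09 (SE, adjusted p = 0.0968). The other 4 probes of Auh were not called in either comparison, with HFoleic vs. Ref fold changes between −0.19 and 0.08. The HFoleic vs. Ref call of Auh was kept in 9 of 13 alternative settings and when 15 of the 20 mice were left out in turn (lost without Ref mouse 5 or 7 or HFoleic mouse 4, 6 or 8), and that of Mccc1 was lost with the replicate block (adjusted p = 0.0643).

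The isoleucine arm was lower in HFoleic vs. Ref at all 5 genes. Acadsb encodes the short/branched-chain acyl-CoA dehydrogenase that opens it, and ranged from 12.37 to 12.80 (median 12.45) in Ref, from 11.64 to 12.38 (median 11.79) in HFoleic and from 11.24 to 12.37 (median 12.16) in HFepa. All 8 HFepa mice were below all Ref mice for Acadsb, by a narrow margin, yet the fold change of −0.47 ± 0.15 (SE, adjusted p = 0.0911) in HFepa vs. Ref missed the threshold, next to −0.63 ± 0.16 (SE, adjusted p = 0.00644) in HFoleic vs. Ref. Echs1, the enoyl-CoA hydratase that the valine arm and fatty acid oxidation also use, ranged from 14.31 to 14.74 (median 14.53) in Ref, from 13.82 to 14.28 (median 13.97) in HFoleic and from 13.84 to 14.43 (median 14.30) in HFepa. Its groups did not overlap between HFoleic and Ref, and the fold changes were −0.51 ± 0.10 (SE, adjusted p = 0.00147) and −0.31 ± 0.10 (SE, adjusted p = 0.081).

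Hsd17b10, the dehydrogenase of the isoleucine arm that is also a subunit of mitochondrial RNase P, showed the largest fall of the 31 genes. It ranged from 14.64 to 15.28 (median 14.93) in Ref, from 13.52 to 14.34 (median 13.82) in HFoleic and from 13.43 to 15.08 (median 14.41) in HFepa. The fold change was −1.02 ± 0.21 (SE, adjusted p = 0.00175) in HFoleic vs. Ref, leaving 49.2% of the Ref level, and −0.60 ± 0.20 (SE, adjusted p = 0.102) in HFepa vs. Ref, leaving 66.1%. Of the HFepa mice, 7 of 8 were below all Ref mice and mouse 3 was inside their range at 15.08, the highest HFepa value.

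Hadh, a hydroxyacyl-CoA dehydrogenase best known from fatty acid oxidation, ranged from 14.13 to 14.46 (median 14.34) in Ref, from 13.81 to 14.31 (median 14.03) in HFoleic and from 13.89 to 14.50 (median 14.24) in HFepa, with fold changes of −0.31 ± 0.10 (SE, adjusted p = 0.02) in HFoleic vs. Ref and −0.12 ± 0.09 (SE, adjusted p = 0.47) in HFepa vs. Ref. Acat1, the mitochondrial thiolase that ends the arm in acetyl-CoA and propionyl-CoA, ranged from 13.01 to 13.29 (median 13.17) in Ref, from 12.68 to 13.02 (median 12.82) in HFoleic and from 12.60 to 13.23 (median 13.06) in HFepa, with fold changes of −0.31 ± 0.09 (SE, adjusted p = 0.0157) and −0.17 ± 0.09 (SE, adjusted p = 0.277). For both genes only 3 of the 8 HFepa mice lay below all Ref mice, against 5 and 4 of the 6 HFoleic mice. The HFoleic vs. Ref calls of Hadh (adjusted p = 0.0565) and Acat1 (adjusted p = 0.0728) were lost with median centring, and those of Acadsb (adjusted p = 0.0682) and Acat1 (adjusted p = 0.0577) with the replicate block. That of Hadh was also lost without HFoleic mouse 5 or 6 (adjusted p = 0.0522 and 0.0501).

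In the valine arm 5 genes were lower and 1 was higher in HFoleic vs. Ref. Acad8 encodes isobutyryl-CoA dehydrogenase, the first enzyme of the arm, and ranged from 11.13 to 11.33 (median 11.20) in Ref, from 10.88 to 11.32 (median 10.93) in HFoleic and from 10.87 to 11.12 (median 11.03) in HFepa. Its fold changes were −0.20 ± 0.07 (SE, adjusted p = 0.0414) in HFoleic vs. Ref and −0.19 ± 0.07 (SE, adjusted p = 0.114) in HFepa vs. Ref. All 8 HFepa mice lay below all Ref mice, by a narrow margin. A dim second probe of Acad8, above background on 7 arrays, was not called at −0.06 (adjusted p = 0.497) in HFoleic vs. Ref. The HFoleic vs. Ref call of Acad8 was the least stable of the 25, as it was kept in 7 of 13 alternative settings and when 12 of the 20 mice were left out in turn.

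Hibch and Hibadh carry the valine chain on through hydroxyisobutyrate, a metabolite that leaves the cell. Hibch ranged from 14.67 to 15.15 (median 14.88) in Ref, from 13.85 to 14.69 (median 14.19) in HFoleic and from 13.91 to 15.13 (median 14.71) in HFepa, with fold changes of −0.64 ± 0.18 (SE, adjusted p = 0.01) and −0.26 ± 0.17 (SE, adjusted p = 0.391). Hibadh ranged from 14.50 to 15.09 (median 14.74) in Ref, from 14.01 to 14.53 (median 14.17) in HFoleic and from 14.01 to 14.83 (median 14.57) in HFepa, with fold changes of −0.53 ± 0.13 (SE, adjusted p = 0.00439) and −0.27 ± 0.12 (SE, adjusted p = 0.203). For both, mouse 1 was the only HFoleic mouse inside the Ref range. Aldh6a1, the methylmalonate semialdehyde dehydrogenase that yields propionyl-CoA, ranged from 15.39 to 15.88 (median 15.47) in Ref, from 14.49 to 15.35 (median 14.62) in HFoleic and from 14.34 to 15.42 (median 15.25) in HFepa. Every HFoleic mouse and 7 of 8 HFepa mice were below the Ref range for Aldh6a1, at −0.75 ± 0.17 (SE, adjusted p = 0.00335) and −0.41 ± 0.16 (SE, adjusted p = 0.159).

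Aldh2, the mitochondrial aldehyde dehydrogenase best known for acetaldehyde, ranged from 15.35 to 16.03 (median 15.54) in Ref, from 14.40 to 15.18 (median 14.58) in HFoleic and from 14.37 to 15.40 (median 15.15) in HFepa. It had the second largest fall, −0.87 ± 0.17 (SE, adjusted p = 0.00123) in HFoleic vs. Ref and −0.51 ± 0.16 (SE, adjusted p = 0.0821) in HFepa vs. Ref, and a further Aldh2 probe was called in HFepa vs. Ref at −0.60 ± 0.13 (SE, adjusted p = 0.0261). Abat, the transaminase that degrades the neurotransmitter GABA and also a semialdehyde of the valine arm, ran against the rest. It ranged from 12.19 to 13.03 (median 12.84) in Ref, from 13.12 to 13.71 (median 13.49) in HFoleic and from 13.19 to 13.94 (median 13.66) in HFepa. All 14 mice on the obesogenic diet lay above all 6 Ref mice for Abat, and the fold change was 0.68 ± 0.15 (SE, adjusted p = 0.00251) in HFoleic vs. Ref and 0.80 ± 0.14 (SE, adjusted p = 0.0146) in HFepa vs. Ref.

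Abat was thus called in both comparisons, the only gene of the 31 with a probe called higher in HFepa vs. Ref. A dimmer Abat probe was called in HFepa vs. Ref at 0.46 ± 0.10 (SE, adjusted p = 0.0268) but not in HFoleic vs. Ref at 0.25 (adjusted p = 0.0811), another was called in neither, and one more was above background on 2 arrays and was not tested.

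**Figure D3:**
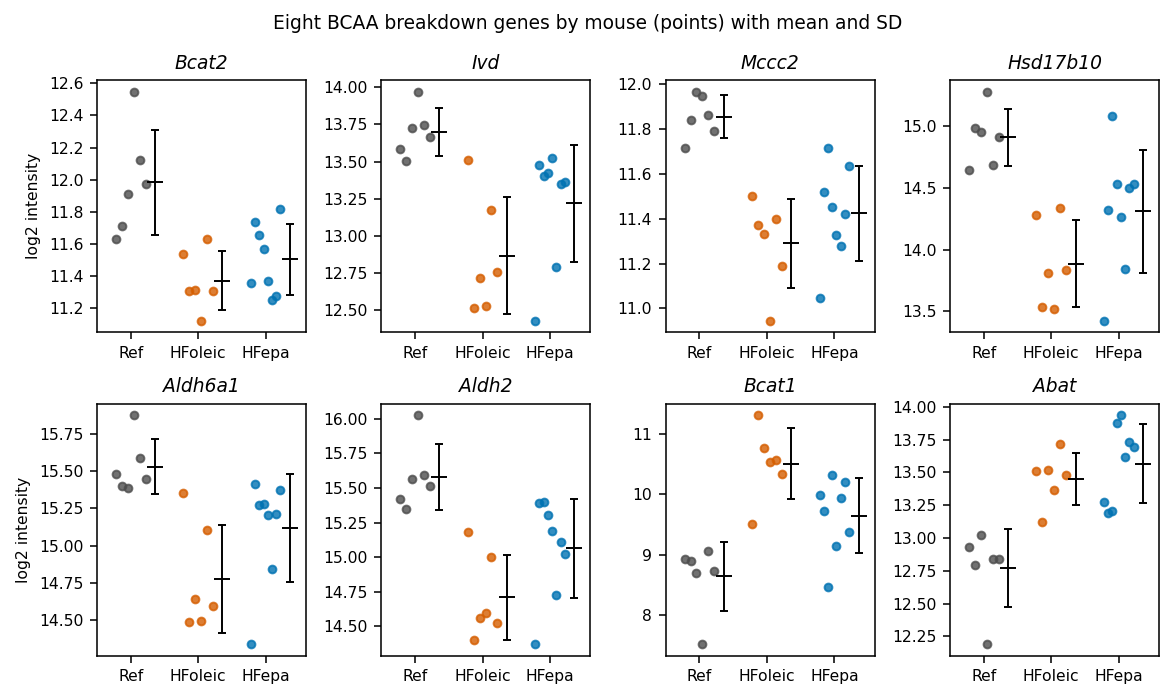
Log2 intensity of 8 of the genes in each mouse (points) with the mean and SD of each group (bars beside the points); each panel has its own scale. In HFoleic the genes other than Bcat1 and Abat sit below Ref and that pair above it, and HFepa mice lie mostly between or beside the other groups.

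After propionyl-CoA, 1 of 4 genes was lower in HFoleic vs. Ref. Propionyl-CoA carboxylase is made of the subunits Pcca and Pccb, and its product goes on to succinyl-CoA through Mcee and the cobalamin enzyme Mut. Pccb ranged from 10.84 to 11.19 (median 11.09) in Ref, from 10.22 to 10.78 (median 10.42) in HFoleic and from 10.15 to 11.06 (median 10.90) in HFepa, without overlap between HFoleic and Ref, and its fold changes were −0.60 ± 0.13 (SE, adjusted p = 0.00281) and −0.32 ± 0.13 (SE, adjusted p = 0.156). Its partner Pcca had medians of 11.58 in Ref, 11.36 in HFoleic and 11.52 in HFepa, with −0.16 ± 0.15 (SE, adjusted p = 0.435) in HFoleic vs. Ref. Mcee and Mut were not called either, at −0.02 ± 0.12 (SE, adjusted p = 0.935) and −0.19 ± 0.10 (SE, adjusted p = 0.158). The 95% confidence interval of the HFoleic vs. Ref fold change was −0.48 to 0.15 for Pcca, −0.28 to 0.24 for Mcee and −0.40 to 0.02 for Mut. The estimate of −0.60 for Pccb lies outside these intervals. Its own interval, −0.87 to −0.32, overlaps those of Pcca and Mut, and whether Pccb differs from them was not tested.

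The enzymes that handle the acetoacetate released by the leucine arm moved apart. Oxct1, which activates ketone bodies for oxidation, ranged from 14.48 to 15.15 (median 14.90) in Ref, from 15.09 to 15.36 (median 15.24) in HFoleic and from 14.51 to 15.34 (median 15.23) in HFepa and was higher in HFoleic vs. Ref, at 0.40 ± 0.13 (SE, adjusted p = 0.0241), with 0.29 ± 0.12 (SE, adjusted p = 0.183) in HFepa vs. Ref. Aacs, the cytosolic synthetase that sends acetoacetate to lipid synthesis, ranged from 13.03 to 13.71 (median 13.13) in Ref, from 12.41 to 13.06 (median 12.69) in HFoleic and from 12.61 to 13.54 (median 12.87) in HFepa and was lower in HFoleic vs. Ref, at −0.48 ± 0.15 (SE, adjusted p = 0.0192), with −0.24 ± 0.14 (SE, adjusted p = 0.336) in HFepa vs. Ref. Both calls were lost with the replicate block (adjusted p = 0.0536 and 0.196), that of Aacs also with median centring (adjusted p = 0.0509). When single mice were left out, that of Oxct1 was lost without Ref mouse 3 or 6 or HFoleic mouse 4 or 8, and that of Aacs without Ref mouse 5 or HFoleic mouse 8.

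Step by step, the median fold change in HFoleic vs. Ref was −0.20 for transport, 0.92 for the first step, −0.51 for BCKDH and its control, −0.55 for leucine, −0.51 for isoleucine, −0.59 for valine, −0.18 for the propionyl-CoA genes and −0.04 for ketone body use. In HFepa vs. Ref the medians were −0.15, 0.32, −0.25, −0.45, −0.31, −0.27, −0.15 and 0.02 in the same order. The steps held 2, 3, 5, 4, 5, 6, 4 and 2 genes in that order. Both first-step medians are the values of Il4i1, while Bcat1 was above Ref and Bcat2 below it in mean. BCKDH with its control and the 3 arms after it therefore held 18 of the 21 lower genes, with Bcat2, Pccb and Aacs as the others.

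The direct comparison of the lineages on the same diet, HFepa vs. HFoleic, called none of the 31 genes, and 0% of all tested genes. All 21 genes that were lower in HFoleic vs. Ref were nominally higher in HFepa than in HFoleic, by between 0.01 (Acad8) and 0.42 (Hsd17b10), but the HFoleic arrays that chose them also enter this difference, and their lowest adjusted p was 0.171 (Dbt). At an unadjusted p below 0.05, 7 of the 31 genes were higher (Bckdha, Dbt, Hsd17b10, Hibch, Hibadh, Aldh2 and Pccb) and 2 were lower (Bcat1 and Il4i1), where 10.8% of all genes were higher and 10% were lower. For none of the 31 genes were HFepa and HFoleic free of overlap, where 0.355% of all genes were.

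The intervals give the sizes these data allow. For Bcat1 the HFepa vs. HFoleic fold change was −0.86 ± 0.30 (SE, adjusted p = 0.139), with a 95% confidence interval of −1.48 to −0.23. For Il4i1 it was −0.60 ± 0.18 (SE, adjusted p = 0.126), with an interval of −0.99 to −0.22, and for Hsd17b10 it was 0.42 ± 0.20 (SE, adjusted p = 0.234), with an interval of 0.01 to 0.84. Abat differed by 0.12 ± 0.14 (SE, adjusted p = 0.685), with an interval of −0.18 to 0.41. The count of 0 depended on single mice, as 4 genes were called without HFepa mouse 1 and 2, Bcat1 and Il4i1, without HFoleic mouse 1. Of all genes, 7.72% and 4.36% were called in these fits. With array weights 6 genes were called, 4 higher and 2 lower in HFepa, where 11.4% of all genes were called.

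The count in HFepa vs. Ref also rested on single mice. Without HFepa mouse 3 it rose from 2 to 7 genes (4 lower, 3 higher), while the share of all genes called rose from 2.46% to 7.03%. Without HFepa mouse 2 it rose to 4 genes, with 2.26% of all genes called. It fell to 1, Abat, without any one of Ref mice 3, 4, 5 and 6 or HFepa mouse 6, where between 0.39% and 0.746% of all genes were called. The 25 calls of HFoleic vs. Ref varied less, between 21 and 25 when each mouse was left out, with between 25.9% and 34.6% of all genes called.

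Mice within a group differed. Of the 21 lower genes, all 21 were below the whole Ref range in HFoleic mice 4, 5, 6 and 8, 17 were in mouse 7, and 8 were in mouse 1. The median of these genes relative to the Ref mean lay between −0.76 and −0.63 in the first 4 of these mice, at −0.38 in mouse 7 and at −0.21 in mouse 1. HFepa mice were as uneven, as mouse 1 had all 21 below the Ref range with a median of −0.77, mouse 6 had 20 with −0.57 and mouse 7 had 19 with −0.35. In the remaining 5 HFepa mice between 9 and 12 of the genes were below the Ref range, with medians between −0.24 and −0.16. The Ref mice themselves had medians between −0.19 and 0.29, the highest being mouse 5.

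**Figure D4:**
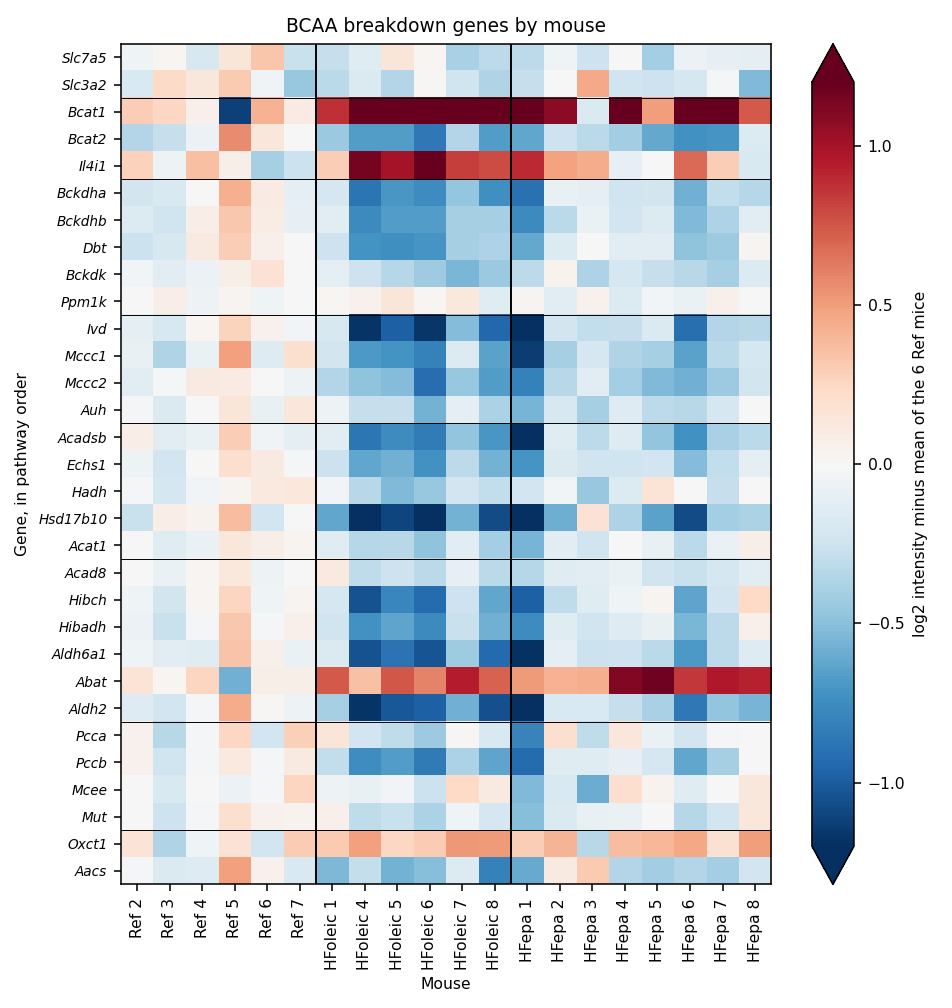
Log2 intensity of the 31 genes (rows, in pathway order, thin lines between steps) in each of the 20 mice (columns, thick lines between groups), minus the mean of the 6 Ref mice; blue is lower and red is higher, and colours end at 1.2 in either direction. HFoleic mouse 1 is paler than the other HFoleic mice, and HFepa mice 1 and 6 are darker than the other HFepa mice.

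Markers of some other cell types also differed between the groups. The 8 markers of lipid-associated macrophages, foam-like macrophages of obese fat (Trem2, Gpnmb, Mmp12 and others), were all higher in HFoleic vs. Ref, 8 of 8 called. Their median fold change was 3.69 there and 1.96 in HFepa vs. Ref, where none was called. Of all tested genes, 15.2% were higher and 16.7% lower in HFoleic vs. Ref, and 2.46% were called in HFepa vs. Ref. The mean log2 intensity of the 8 markers ranged from 8.17 to 9.54 in Ref, from 11.30 to 13.21 in HFoleic and from 8.77 to 13.67 in HFepa. Of the 10 general macrophage markers, 6 were higher and 1 was lower in HFoleic vs. Ref, and the mean of the list ranged from 11.37 to 11.76 in Ref, from 12.03 to 12.94 in HFoleic and from 11.28 to 12.89 in HFepa. Within HFepa, the mice with the lowest BCAA genes had the highest values for the lipid-associated list, with mouse 1 at 13.67 and mouse 6 at 12.74, while the rest ran from 8.77 to 10.90. In turn HFoleic mouse 1, with the mildest BCAA values of its group, was also the lowest HFoleic mouse for that list, at 11.30.

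Of the 10 adipocyte markers, 3 were lower (Lipe, Retn and Cfd) and 1, Lep, was higher in HFoleic vs. Ref, and none was called in HFepa vs. Ref. Over all genes, 16.7% were lower and 15.2% higher in HFoleic vs. Ref, and 2.46% were called in HFepa vs. Ref. The mean of the adipocyte list ranged from 16.41 to 16.62 in Ref, from 16.21 to 16.57 in HFoleic and from 16.25 to 16.58 in HFepa, with 16.25 in HFepa mouse 1, 16.36 in HFepa mouse 6 and 16.57 in HFoleic mouse 1. Lipe was at −1.19, Retn at −0.65 and Cfd at −0.50. The 6 markers called in neither comparison were at −0.33 (Plin1), −0.20 (Plin4), −0.03 (Adipoq), 0.02 (Cidec), 0.02 (Fabp4) and 0.10 (Lpl) in HFoleic vs. Ref. The part of macrophages and of adipocyte number in the BCAA values was not tested.

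**Figure D5:**
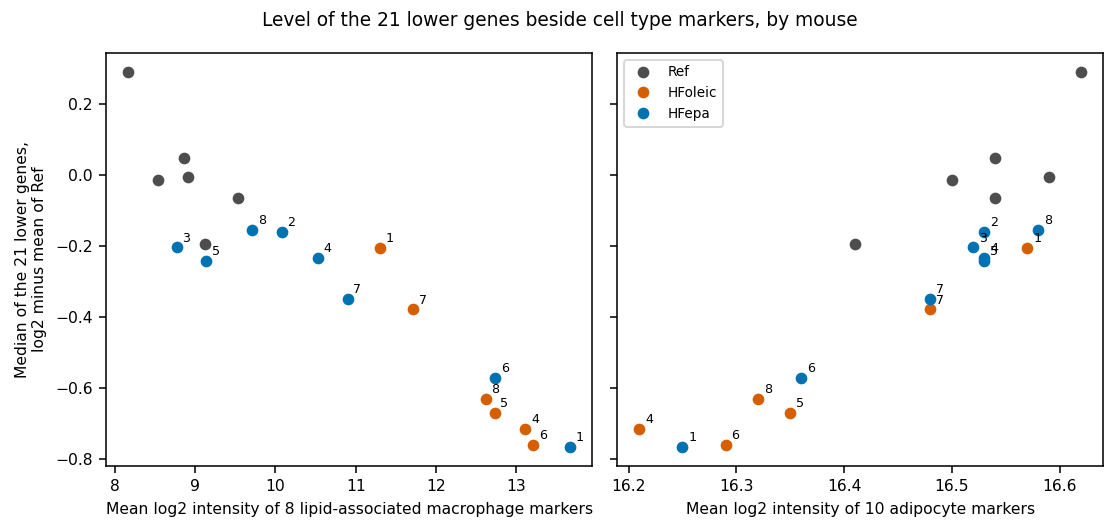
Median of the 21 genes lower in HFoleic vs. Ref, as log2 intensity minus the Ref mean, in each mouse (points, numbered for HFoleic and HFepa) against the mean log2 intensity of the lipid-associated macrophage markers (left) and of the adipocyte markers (right). HFepa mouse 6 lies among the HFoleic mice in both panels, HFepa mouse 1 has the lowest median of all mice and the highest macrophage markers, and HFoleic mice 1 and 7 lie nearest to the other HFepa mice; no correlation was computed, since the mice fall into clusters.

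Among the other marker lists, those of T cells, B cells, endothelial and mesothelial cells, epididymis, liver, skeletal muscle and pancreas had no call in either comparison. In HFoleic vs. Ref the progenitor and fibroblast list had 2 of 7 genes higher, the mast cell list 1 of 5 lower, the brown adipocyte list 1 of 6 higher and 1 lower, and the testis list 1 of 4 tested genes lower. Over all genes, 15.2% were higher and 16.7% lower in that comparison. HFepa mouse 7 stood apart for brown adipocyte markers, with a list mean of 10.35 where every other mouse was at 8.64 or below, and brown fat is a tissue with high BCAA oxidation. Without that mouse 2 of the 31 genes were called in HFepa vs. Ref, as with it, while the share of all genes called fell from 2.46% to 1.18%. Testis markers had a mean of 9.06 in HFoleic mouse 5, 8.41 in Ref mouse 6, 8.27 in Ref mouse 3 and 8.10 in HFepa mouse 4, above those of all the other mice. Epididymis markers stood at 7.54 in HFepa mouse 2 and 7.17 in Ref mouse 3, with the other mice at 6.46 or below, and liver markers at 12.52 in HFoleic mouse 6, with the other mice between 7.35 and 11.36. The part of these tissues, brown fat included, in the BCAA values was not tested.

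Genes around the chain were called at about the share of all genes. Of 37 further genes tested (shared fatty acid oxidation enzymes, ketone body enzymes, aldehyde enzymes, vitamin supply, carriers and regulators), 6 were higher and 6 lower in HFoleic vs. Ref, where 15.2% of all genes were higher and 16.7% lower, and their median was −0.01. The 8 fatty acid oxidation enzymes that the arms share substrates with had no call in either comparison and a median of 0.17 in HFoleic vs. Ref. Slc25a44, the mitochondrial BCAA carrier, was at −0.08 ± 0.09 (SE, adjusted p = 0.565).

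Of these further genes, Slc43a1, Ppargc1a, Slc43a2, Esrra and Aldh1b1 are named for the size of their difference in HFoleic vs. Ref. Aldh1b1, a mitochondrial aldehyde dehydrogenase related to Aldh2, is one of the 6 higher genes, but was well above background on 2 of the 6 Ref arrays and on all 6 HFoleic arrays, so it passed the filter only through the mice on the obesogenic diet, and no fold is given. Slc43a1 and Slc43a2 encode transporters of BCAA and other neutral amino acids and moved apart, at −0.85 ± 0.23 (SE, adjusted p = 0.00832) and 0.53 ± 0.15 (SE, adjusted p = 0.0138). Ppargc1a, a coactivator of mitochondrial genes, was at −0.71 ± 0.23 (SE, adjusted p = 0.0213), and its partner Esrra, the estrogen-related receptor alpha, was at 0.52 ± 0.10 (SE, adjusted p = 0.00123). In HFepa vs. Ref 2 further genes were called, both higher, namely Slc7a8, a neutral amino acid exchanger, at 0.61 ± 0.15 (SE, adjusted p = 0.0419), and Hlcs, which attaches biotin to Mccc1 and Pcca, at 0.36 ± 0.09 (SE, adjusted p = 0.0446). Klf15 and Pparg, regulators that are known to act on BCAA genes, were not called, at −0.20 ± 0.18 (SE, adjusted p = 0.424) and −0.23 ± 0.13 (SE, adjusted p = 0.167).

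Promoters were searched for the sites of these receptors. RefSeq sequences (GRCm38.p6) from 250 bases before to 50 bases after a start were held for 25 of the 31 genes, as 30 promoters. None of the 30 held TCAAGGTCA on either strand, the site of estrogen-related receptors, which 0.423% of all 32,851 promoters held, and none held the DR1 repeat bound by PPAR-RXR, which 0.040% held. With shares this low, no match among 30 sequences says only that these letters are not in these windows.

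Each of the 3 slides held mice of every group, with 1 HFoleic mouse on slide 2. The 21 lower and 4 higher genes were chosen on these same arrays, so their signs within slides are a description. In HFoleic vs. Ref all 21 were below and all 4 above Ref in mean on each slide. In HFepa vs. Ref 20, 21 and 20 of the 21 were below Ref on slides 1, 2 and 3, with Hsd17b10 at −0.03 on slide 3, and in HFepa vs. HFoleic 3, 0 and 2 of the 21 were below HFoleic. The median difference of the 31 genes within a slide was −0.25, −0.50 and −0.42 for HFoleic vs. Ref, and −0.17, −0.37 and −0.25 for HFepa vs. Ref. Ref mouse 5 stood apart for 4 of the genes, lowest for Bcat1 and Abat and highest for Aldh2 and Aacs. Without it 22 genes were called in HFoleic vs. Ref, with Auh, Acad8 and Aacs lost, and 29.3% of all genes were called.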

How the data were processed

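The RNA of 20 VAT samples was hybridized on 1-colour Agilent arrays (6 Ref, 6 HFoleic, 8 HFepa). Per the labels and the file headers, the authors extracted the spot intensity with Agilent Feature Extraction 10.10.1.1, and as deposited the median intensity is linear and not normalized. A value table deposited by the authors holds log2 values, quantile normalized after a filter on probes, which correlated with the values used here at r of 0.99998 or more on every array over the 38,132 probes in both.

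Median intensities of the 59,305 non-control spots were log2-transformed with no background correction, then quantile normalized, with marked spots left missing, in R 4.3.3 with limma 3.58.1. The 39,390 of 56,605 distinct probes well above background on at least 6 arrays were tested with limma (lmFit on all 20 arrays, contrasts, eBayes), as in the methods of the study, with Benjamini–Hochberg adjustment over all probes at 0.05. A gene was its brightest tested probe. Other probes of the 31 genes were named where they differed from it in call against Ref, and not for every difference in sign. A member called in any contrast was given by its range in each group, and further pathway genes were named where called in HFepa vs. Ref or among the 5 largest called changes in HFoleic vs. Ref. Probe levels were not compared between genes. The member genes, marker lists and further genes were chosen with earlier results of these data known. Replicates are separate mice, whose number limits the precision, and no spot was saturated. Gene names and mm9 positions are those of the files, and 30 of the 31 names are symbols in RefSeq GRCm38.p6. The settings tried instead were the processed signal, normexp, median centring, the authors' log2 values, other filters on dim or marked spots, slide and replicate blocks, array weights, trended variances, fits of the compared groups alone, means over probes, and each mouse left out. On simulated data for HFoleic vs. Ref, with independent normal noise and changes of a doubling or its reverse, 189 of 200 changed probes were recovered. The same run gave 9 false calls. Most changes reported here were smaller, so the share recovered does not apply to them.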

Additional observations from a re-analysis of the deposited data

Results flagged for a closer look

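For 31 genes in 3 groups, 93 sets of mice were checked for a mouse far from the others. Of these 6 had one, a share near the 1 in 20 or so that chance gives. Ref mouse 5 accounted for 4 of the 6, and since the sets share mice these 4 are not independent. It was the lowest Ref mouse for Bcat1, at 7.52 with the nearest at 8.71, and for Abat, at 12.19 with the nearest at 12.80. It was the highest Ref mouse for Aldh2, at 16.03 with the nearest at 15.60, and for Aacs, at 13.71 with the nearest at 13.27. HFepa mouse 1 was far below the others for Mccc1, at 12.61 with the nearest at 13.11, and was also the mouse with the highest lipid-associated macrophage markers. HFepa mouse 3 was far below the others for Oxct1, at 14.51 with the nearest at 15.02. Whether anything sets these mice apart was not tested.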

How the results depend on the processing

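The count of BCAA genes called in HFoleic vs. Ref stayed between 18 (replicate number as a block) and 26 (array weights). Of all genes, 21.1% and 41.8% were called in these fits, against 31.8% in the main fit. With a mouse left out the count lay between 21 and 25, with between 25.9% and 34.6% of all genes called. In HFepa vs. Ref the 2 calls became 1 with median centring, with only the compared groups and with the mean of all probes. Of all genes, 1.61%, 0.425% and 2.39% were called there. The count was 0 with the replicate block (0.0664% of all genes). It rose to 3 with a filter asking for signal on every array of a group (3.4%) and with array weights (3.97%). With a mouse left out it ranged from 1 to 7, with between 0.39% and 7.03% of all genes called. In HFepa vs. HFoleic the count of 0 became 6 with array weights and ranged from 0 to 4 with a mouse left out. Of all genes, 11.4% were called with array weights and between 0% and 7.72% with a mouse left out. The replicate numbers share no known pairing, as only 2 of the 20 mice correlated best with a mouse of their own number and 5 of 16 same-number pairs exceeded a correlation of 0.1. The block called 18, 0 and 0 genes in the order above. Abat in HFepa vs. Ref lost its call only under that block (adjusted p = 0.0836), whereas Mccc2 also lost it with median centring, the compared groups alone, the mean of all probes, and without Ref mouse 3, 4, 5 or 6 or HFepa mouse 6. In HFoleic vs. Ref, Ppm1k turned to −0.18 with the processed signal, −0.14 with median centring and −0.29 with the mean of its probes (adjusted p = 0.0126). Mcee turned to 0.037 with median centring, and ranged from −0.067 (without HFoleic mouse 7) to 0.035 (without Ref mouse 7) with a mouse left out, and was above 0 also without HFoleic mouse 6 (0.032). The mean of all probes includes the second Ppm1k probe, and the cause of the other changes was not tested. Of the fold changes of single genes under the other settings, 911 kept direction and call, 23 lost a call, 9 gained one and 4 reversed. With a mouse left out these numbers were 1415, 26, 17 and 2. Probes near background and those with a shared run give the least certain values.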
